A study of Mus musculus with 6 samples.

Results

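The cell death machinery of regenerating liver was read as 39 genes that carry out or restrain apoptosis and necroptosis: caspases, members of the BCL2 family, death receptor adaptors, necroptosis genes, caspase inhibitors, mitochondrial release factors and the DNA-cutting nuclease with its inhibitor. The genes were chosen by name, and each was read from the probe set (a group of array probes for a transcript) that is annotated to that gene alone and has the highest mean over the 6 arrays. By this rule 37 of the 39 were measured, among 17097 genes in all. Gsdmd, the pore-forming protein of pyroptosis, and Ripk1, the kinase that sits above Ripk3, were not analysed here.

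Liver RNA came from 3 mice with a hepatocyte-specific deletion of Klf6, a zinc-finger transcription factor, labelled DeltaKlf6, and from 3 wildtype mice, all of strain C57Bl/6. Every animal of both groups had 70% of the liver removed and was sampled 12 h later, so neither group shows liver without surgery. Each array holds 1 animal, and the RNA is of whole remnant liver, in which cells other than hepatocytes keep Klf6. The sources used here name neither the promoter that drives the deletion nor the age of the mice.

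Apoptosis reaches the liver cell by a pair of routes. Death receptors such as FAS recruit FADD and caspase-8, while damage from within acts through BH3-only proteins on BAK and its relatives, which open the mitochondrial outer membrane and let out cytochrome c to build the apoptosome with APAF1 and caspase-9. Hepatocytes are known as very sensitive to FAS, rely on MCL1 and BCL-XL for survival in mice, and pass the receptor signal to mitochondria through BID. Necroptosis is the caspase-independent route in which RIPK3 phosphorylates MLKL, whose oligomers break the plasma membrane.

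The arrays gave 45141 log2 values each, with medians between 3.30 and 3.45. Klf6 itself went against the label in a library: its 3 probe sets had log2 levels of 5.81, 5.88 and 7.03 in the library labelled DeltaKlf6 1, 2.82, 4.12 and 4.61 in DeltaKlf6 2, and 2.83, 3.74 and 3.15 in DeltaKlf6 3, where the wildtype arrays had 3.41 to 4.03, 3.73 to 4.44 and 4.43 to 5.20. DeltaKlf6 2 lay below the wildtype range only on the first probe set, and DeltaKlf6 3 on the first and the third. By group mean Klf6 was not lower in DeltaKlf6 on any of them, with log2 differences of 0.13, 0.52 and 0.02. Whether these probe sets lie in the deleted part is not known here, and one outside it checks nothing. Every direction below is therefore between libraries as labelled. The library labelled DeltaKlf6 3 stood apart in its upper quartile, 5.08 on the log2 scale, where DeltaKlf6 1 and 2 had 5.53 and 5.63 and the wildtype arrays 5.50 to 5.51. Its signal at the 3' end of Gapdh exceeded that at the 5' end by 4.83 (log2), where DeltaKlf6 1 and 2 had gaps of 3.47 and 3.45 and the wildtype arrays 4.06 to 4.43. The same gap for actin, 5.05 in DeltaKlf6 3, lay within the wildtype range of 4.86 to 5.39 (log2), and DeltaKlf6 1 and 2 lay below that range. The 6 hepatocyte markers had mean log2 levels of 12.73, 12.53 and 12.26 in DeltaKlf6 1, 2 and 3, and the wildtype arrays had 12.30 to 12.39.

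None of the 37 cell death genes passed the test between DeltaKlf6 and wildtype (limma, Benjamini-Hochberg adjustment over all genes), and none of the 17097 genes did, a background of 0%. The smallest adjusted p among the cell death genes was 0.992. By group mean 17 were higher and 20 lower, with a median log2 difference of -0.09, beside -0.01 over all genes tested. That median was 0.20 without DeltaKlf6 3, 0.08 without wildtype 2 and -0.17 without DeltaKlf6 1. Leaving out either DeltaKlf6 3 or wildtype 2 thus turned its sign. At an unadjusted p under 0.05 there were 5 cell death genes, or 13.5%, beside 3.69% of all genes. Of these 5, Ripk3 and Nol3 were higher (1.21% of all genes were called on that side) and Bcl2l13, Dffa and Bik were lower (2.48% of all genes). The count was 3 without the library labelled DeltaKlf6 1 (beside 4.09% of all genes), 6 without DeltaKlf6 2 (6.81%) and 5 without DeltaKlf6 3 (9.04%). It was 2 without wildtype 1 (2.27%), 4 without wildtype 2 (2.76%) and 4 without wildtype 3 (2.22%).

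The groups did not overlap for 4 of the 37, beside 9.32% of all genes: Ripk3, Nol3 and Dffb were higher in all 3 libraries labelled DeltaKlf6 (3.41% of all genes), and Bcl2l13 was lower in all 3 (5.91%). With 3 arrays against 3, an exact two-sided permutation test of 1 gene cannot go below p = 0.10. The means of 8 of the 37 genes, Casp1, Casp4, Casp12, Bmf, Tradd, Ripk3, Nol3 and Dffb, lay below the median of all gene means (4.38 on the log2 scale). That group holds all 3 genes that were higher without overlap. Detection was not assessed, so for these genes signal and array background cannot be told apart.

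**Figure D1:**
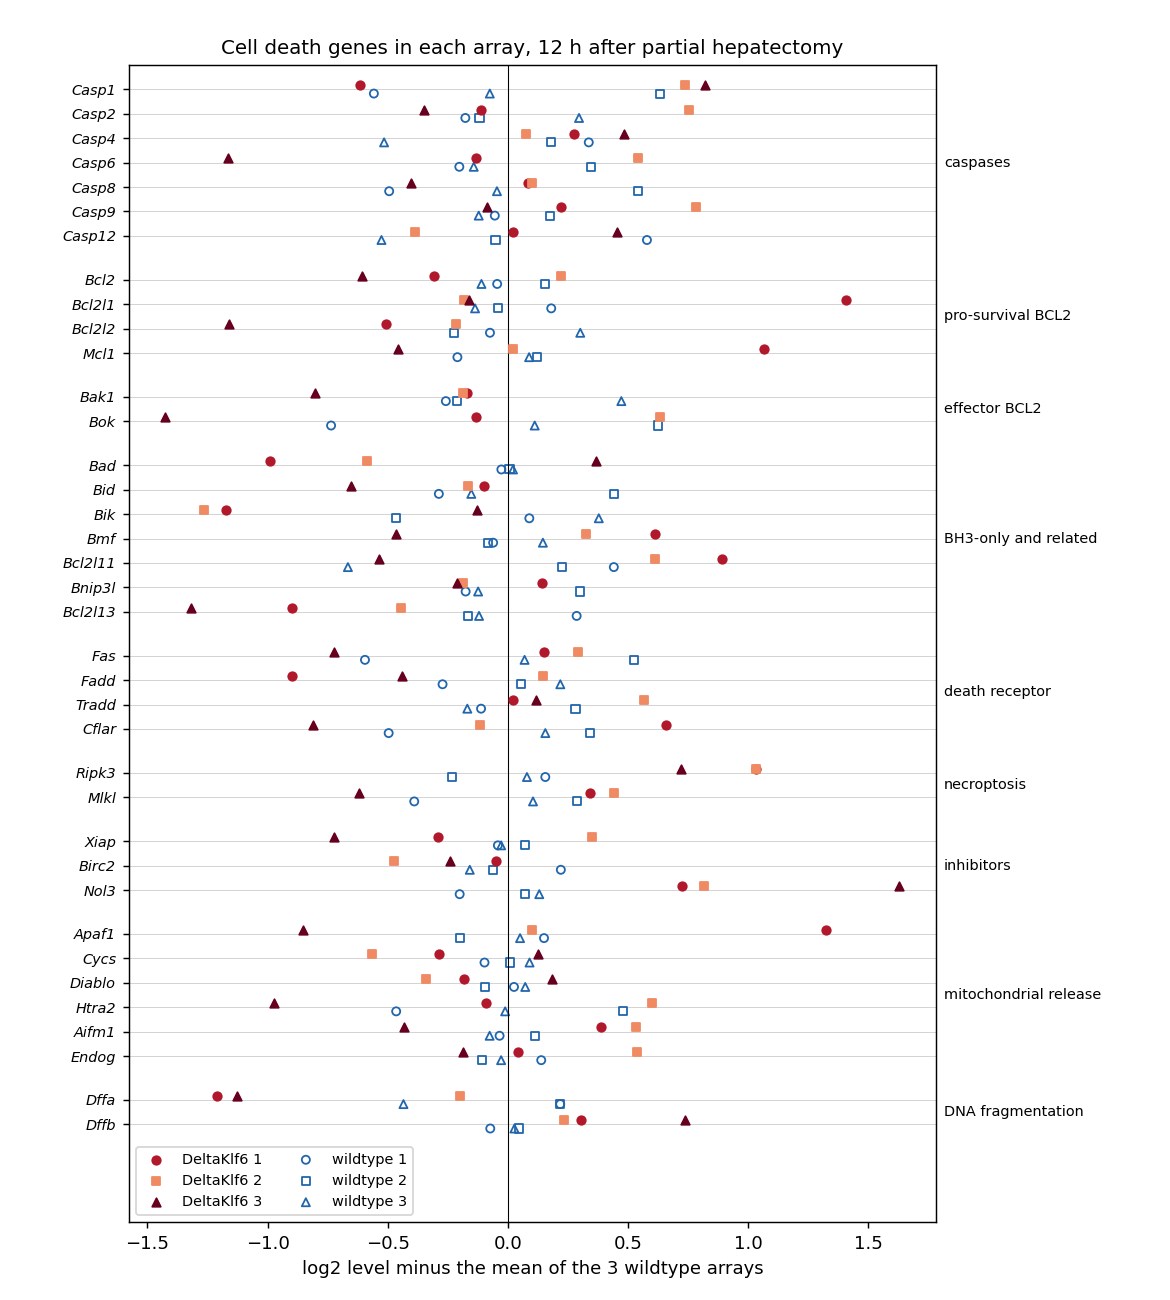
Each row is a gene and each point an array, placed at its log2 level minus the mean of the 3 wildtype arrays. Filled symbols are the libraries labelled DeltaKlf6 and open symbols wildtype. Ripk3 and Nol3 stand to the right in all 3 DeltaKlf6 libraries, Bcl2l13 to the left, and most other rows overlap.

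**Figure D2:**
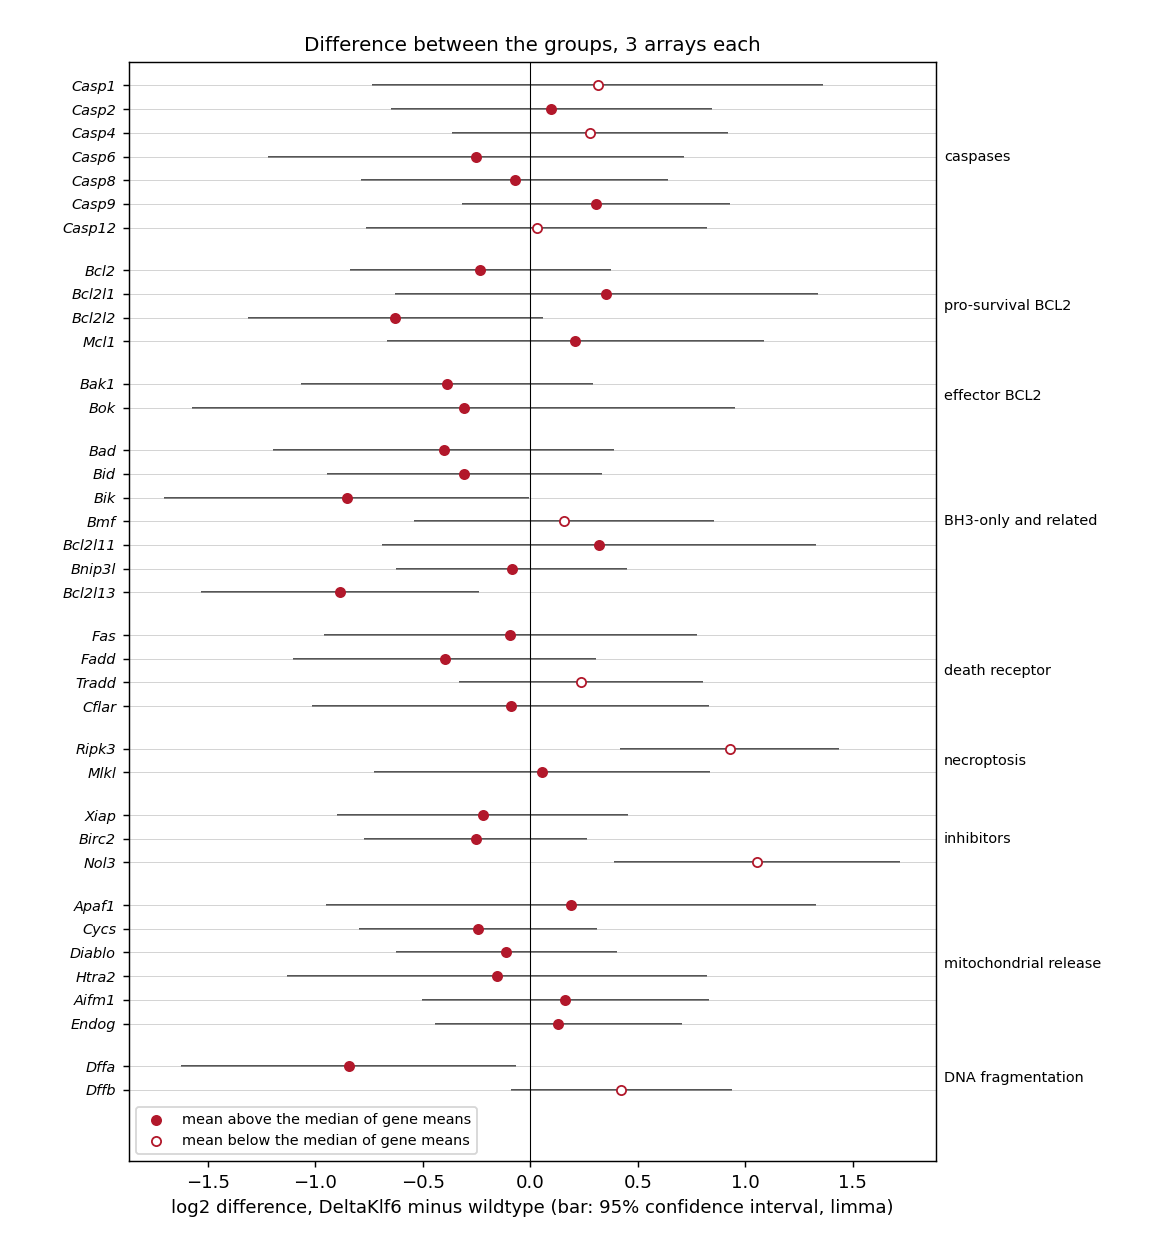
Points are log2 differences, DeltaKlf6 minus wildtype, with 95% confidence intervals from limma (3 arrays a group). Intervals of Ripk3 and Nol3 lie above 0 and those of Bcl2l13, Bik and Dffa below it before adjustment. Open points are the 8 genes with a mean below the median of gene means.

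Ripk3 and Bcl2l13 had the smallest unadjusted p on the higher and the lower side among the genes with a RefSeq promoter window, a choice made after values were seen, and their upstream sequences are shown because KLF proteins are known to bind GC boxes and CACCC elements. Both are from the GRCm38.p6 build, read 5′ to 3′ on the gene's strand and ending at the base before the gene's first annotated base, chr14:55788858-55789107 on the minus strand for Ripk3 and chr6:120835980-120836205 on the plus strand for Bcl2l13. Capitals mark GGGCGG (GC box) and CACCC on either strand.
Ripk3: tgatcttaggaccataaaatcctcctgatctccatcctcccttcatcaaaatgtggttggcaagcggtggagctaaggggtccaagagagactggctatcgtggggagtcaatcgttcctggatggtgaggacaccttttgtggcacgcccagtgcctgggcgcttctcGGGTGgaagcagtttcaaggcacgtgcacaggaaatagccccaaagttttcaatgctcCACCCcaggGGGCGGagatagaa
Bcl2l13: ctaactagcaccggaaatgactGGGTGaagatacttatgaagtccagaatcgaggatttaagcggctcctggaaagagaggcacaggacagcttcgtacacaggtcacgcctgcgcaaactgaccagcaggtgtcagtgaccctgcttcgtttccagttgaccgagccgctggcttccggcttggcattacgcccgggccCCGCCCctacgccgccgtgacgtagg
The Ripk3 stretch of 250 bases held 1 GC box and 2 CACCC elements, and the Bcl2l13 stretch of 226 bases held 1 of each. Windows of 250 bases before an annotated start were found for 33 of the 39 genes, 44 windows in all. A GC box stood in 25 of these (56.8%), beside 42.6% of 21262 windows of protein-coding genes and 32.7% of all 32851 windows. A CACCC element stood in 27 (61.4%), beside 54.2% of protein-coding and 52% of all windows. The 2 motifs can overlap. A match is a stretch of letters, and binding was not measured.

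Necroptosis was represented by its kinase and its executioner. Ripk3, the kinase that commits a cell to necroptosis, had log2 levels of 3.66, 3.66 and 3.34 in DeltaKlf6 1, 2 and 3, against 2.78, 2.39 and 2.70 in wildtype 1, 2 and 3. All 3 DeltaKlf6 values lay above the highest wildtype value. The log2 difference was 0.93 (SE 0.22, 95% confidence interval 0.42 to 1.43, limma adjusted p = 0.992). It stayed between 0.81 and 1.03 when each array was left out in turn.

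Mlkl, the target of that kinase, had log2 levels of 5.09, 5.19 and 4.13 in DeltaKlf6 1, 2 and 3, against 4.36, 5.04 and 4.85 in wildtype 1, 2 and 3. The groups overlapped, with DeltaKlf6 3 the lowest of all 6. Its log2 difference was 0.05 (SE 0.34, 95% confidence interval -0.72 to 0.83), and the sign turned when DeltaKlf6 1 or 2 or wildtype 1 was left out (-0.09, -0.14 and -0.14).

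Ripk3 and Mlkl are expressed in immune cells too, and in bulk liver fewer cells of a type and less RNA per cell cannot be told apart. Of the 10 markers of Kupffer cells and macrophages 8 were higher by group mean, with mean log2 levels of 7.54, 8.17 and 7.35 in DeltaKlf6 1, 2 and 3, against 7.18, 7.59 and 7.45 in wildtype 1, 2 and 3. DeltaKlf6 2 was above every wildtype array and DeltaKlf6 3 was not. The 8 neutrophil markers measured, 6 of them below the median of gene means, had mean log2 levels of 4.13 to 4.73 in DeltaKlf6 and 4.26 to 4.63 in wildtype, with 4 higher and 4 lower. The 8 lymphocyte markers measured lay between 3.39 and 3.54 in DeltaKlf6 and between 3.48 and 3.60 in wildtype (mean log2 levels), and all 8 had a mean below the median of gene means. None of these markers passed the test, and their part in the Ripk3 difference was not tested.

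The caspases were mixed. Of 7 measured, 5 were higher and 2 lower, from -0.25 for Casp6 to 0.31 for Casp1 (log2 differences), with a median of 0.10, which was 0.02 without wildtype 3 and 0.20 without DeltaKlf6 1. None had an unadjusted p under 0.05 and none had groups apart. Casp9, the initiator that the apoptosome activates, had log2 levels of 5.84, 6.40 and 5.53 in DeltaKlf6 1, 2 and 3, against 5.56, 5.79 and 5.50 in wildtype 1, 2 and 3. Both DeltaKlf6 1 and 2 lay above every wildtype array and DeltaKlf6 3 lay among them. The log2 difference was 0.30 (SE 0.27, 95% confidence interval -0.32 to 0.92), and it was 0.07 without DeltaKlf6 2 and 0.50 without DeltaKlf6 3. The other Casp9 probe set, below the median of gene means, differed by -0.17 (log2).

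Casp4, the mouse gene of the inflammatory caspase that senses bacterial lipopolysaccharide, had log2 levels of 4.14, 3.94 and 4.34 in DeltaKlf6 1, 2 and 3, against 4.20, 4.04 and 3.34 in wildtype 1, 2 and 3. Wildtype 3 was the lowest array and the others overlapped. The log2 difference was 0.28 (SE 0.28), and 0.02 without wildtype 3. Casp1, which matures interleukin-1 beta, had log2 levels of 3.14, 4.49 and 4.58 in DeltaKlf6 1, 2 and 3, against 3.20, 4.39 and 3.68 in wildtype 1, 2 and 3. Its arrays ran over the same range in both groups (log2 difference 0.31, SE 0.45). Without DeltaKlf6 1 the Casp1 difference was 0.78, and without wildtype 1 it was 0.04.

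Casp8, the initiator at death receptors, had log2 levels of 7.71, 7.73 and 7.22 in DeltaKlf6 1, 2 and 3, against 7.13, 8.17 and 7.58 in wildtype 1, 2 and 3. Wildtype holds both the lowest and the highest array, and the log2 difference was -0.07 (SE 0.31), and 0.20 without wildtype 2. Casp6, an executioner caspase, spread from 5.16 to 6.86 in DeltaKlf6 and from 6.12 to 6.67 in wildtype (log2 levels), and its log2 difference of -0.25 was 0.20 without DeltaKlf6 3 and 0.20 on its other probe set. Casp2, an initiator linked in hepatocytes to the control of ploidy, differed by 0.10 (log2, SE 0.32) and by -0.23 without DeltaKlf6 2. Casp12, a caspase of the endoplasmic reticulum in mice, differed by 0.03 (log2, SE 0.34) on the probe set used, and by -0.23 without wildtype 3. On its other probe set Casp12 had log2 levels of 3.87, 3.92 and 4.28 in DeltaKlf6 1, 2 and 3, against 3.11, 3.45 and 3.64 in wildtype 1, 2 and 3, so that the groups did not overlap there (log2 difference 0.62, SE 0.23). Both of its probe sets had means below the median of gene means.

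The BCL2 family held more lower than higher genes, 9 against 4 of 13 measured, with a median log2 difference of -0.31, beside -0.01 over all genes and -0.07 over the 8548 genes above the median level. The family median was -0.04 without DeltaKlf6 3 and -0.09 without wildtype 2. Its 3 classes are taken in turn.

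Among the 4 pro-survival genes, Bcl2l1 and Mcl1 had their highest value in the same library. Bcl2l1, encoding BCL-XL, had log2 levels of 8.70, 7.11 and 7.13 in DeltaKlf6 1, 2 and 3, against 7.47, 7.25 and 7.16 in wildtype 1, 2 and 3. Mcl1 had log2 levels of 9.86, 8.81 and 8.33 in DeltaKlf6 1, 2 and 3, against 8.58, 8.91 and 8.88 in wildtype 1, 2 and 3. On the probe sets used DeltaKlf6 1, the library in which Klf6 was high, was the highest array for both genes. It lay 1.41 and 1.07 over the wildtype mean there (log2). DeltaKlf6 2 and 3 lay within or below the wildtype range. Over the 37 cell death genes DeltaKlf6 1 was the highest array for 7 (18.9%), beside 19.3% of all genes. The group differences of Bcl2l1 and Mcl1 were 0.35 (SE 0.42) and 0.21 (SE 0.38) on the log2 scale. They became -0.17 and -0.22 without DeltaKlf6 1. Of the other probe sets 2 of 3 were higher for Bcl2l1 and 1 of 2 for Mcl1. On the lower Mcl1 probe set wildtype 2 was the highest array, at 7.84 beside 7.69 in DeltaKlf6 1 (log2). On the higher one DeltaKlf6 1 was. The other Bcl2l1 probe sets all lay below the median of gene means. DeltaKlf6 3 was the highest array on those that differed by 0.75 and -0.09, and DeltaKlf6 1 on that at 0.25 (log2).

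Bcl2l2, encoding BCL-W, had log2 levels of 5.30, 5.59 and 4.64 in DeltaKlf6 1, 2 and 3, against 5.73, 5.58 and 6.11 in wildtype 1, 2 and 3. DeltaKlf6 1 and 3 lay below every wildtype array, and DeltaKlf6 2 lay just above the lowest. Its log2 difference was -0.63 (SE 0.30, 95% confidence interval -1.31 to 0.05), and -0.36 without DeltaKlf6 3. The other 3 Bcl2l2 probe sets, all below the median of gene means, differed by -0.04, -0.04 and 0.00, and the mean over its probe sets by -0.17 (log2). Bcl2, the founding member, had log2 levels of 4.25, 4.79 and 3.96 in DeltaKlf6 1, 2 and 3, against 4.52, 4.72 and 4.45 in wildtype 1, 2 and 3, and both groups overlapped (log2 difference -0.23, SE 0.26). The Bcl2 difference was -0.04 without DeltaKlf6 3 and -0.46 without DeltaKlf6 2.

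The measured effectors were Bak1 and Bok, which permeabilise mitochondrial membranes. Bak1 had log2 levels of 5.96, 5.94 and 5.33 in DeltaKlf6 1, 2 and 3, against 5.87, 5.92 and 6.60 in wildtype 1, 2 and 3 (log2 difference -0.39, SE 0.29, and -0.15 without wildtype 3). Its other probe set, below the median of gene means, differed by 0.32, and the mean of both by -0.03 (log2). Bok had log2 levels of 6.32, 7.09 and 5.03 in DeltaKlf6 1, 2 and 3, against 5.72, 7.08 and 6.57 in wildtype 1, 2 and 3. On the probe sets used for both genes DeltaKlf6 3 was the lowest array and the remaining arrays were mixed. The log2 difference of Bok was -0.31 (SE 0.54) and turned to 0.25 without DeltaKlf6 3.

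Of the 7 BH3-only and related genes 2 were higher and 5 lower, with a median log2 difference of -0.31 (-0.09 without wildtype 2). Bcl2l13, a mitochondrial outer membrane protein of the family that also serves as a mitophagy receptor, had log2 levels of 5.70, 6.15 and 5.28 in DeltaKlf6 1, 2 and 3, against 6.88, 6.43 and 6.48 in wildtype 1, 2 and 3. All 3 DeltaKlf6 libraries lay below the lowest wildtype array. The log2 difference was -0.89 (SE 0.28, 95% confidence interval -1.53 to -0.24, limma adjusted p = 0.992) and ranged from -1.11 to -0.67 with each array left out. On its other probe set Bcl2l13 differed by -0.22 (log2, SE 0.23) and the groups overlapped.

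Bik, a BH3-only protein of the endoplasmic reticulum, had log2 levels of 6.30, 6.21 and 7.34 in DeltaKlf6 1, 2 and 3, against 7.56, 7.00 and 7.85 in wildtype 1, 2 and 3. DeltaKlf6 1 and 2 lay below the wildtype range and DeltaKlf6 3 within it (log2 difference -0.85, SE 0.36, 95% confidence interval -1.70 to -0.01). A second Bik probe set had log2 levels of 4.77, 4.88 and 4.74 in DeltaKlf6 1, 2 and 3, against 5.12, 5.23 and 6.25 in wildtype 1, 2 and 3, with no overlap (log2 difference -0.74, SE 0.32), and the third differed by -0.16 (SE 0.20). Bad, a BH3-only protein held inactive by phosphorylation under growth factor signals, had log2 levels of 7.94, 8.34 and 9.29 in DeltaKlf6 1, 2 and 3, against 8.90, 8.93 and 8.95 in wildtype 1, 2 and 3. The wildtype arrays were nearly equal, and DeltaKlf6 left their range on both sides (log2 difference -0.40, SE 0.34). The Bad difference was -0.11 without DeltaKlf6 1 and -0.79 without DeltaKlf6 3.

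Bid, which caspase-8 cleaves to link receptor and mitochondria, differed by -0.31 (log2, SE 0.28), and by -0.09 without wildtype 2. Its other probe sets, both below the median of gene means, differed by -0.48 and 0.15 (log2). On that at -0.48 the groups did not overlap, with log2 levels of 2.67 to 3.01 in DeltaKlf6 against 3.03 to 3.74 in wildtype. Bcl2l11, encoding BIM, had log2 levels of 5.93, 5.65 and 4.50 in DeltaKlf6 1, 2 and 3, against 5.48, 5.26 and 4.37 in wildtype 1, 2 and 3 (log2 difference 0.32, SE 0.44, and -0.01 without wildtype 3). Of its 5 probe sets 4 were higher, and on 1 of these the groups did not overlap, at 2.84, 2.83 and 3.57 in DeltaKlf6 1, 2 and 3, against 2.65, 2.41 and 2.35 in wildtype 1, 2 and 3 (log2 levels, below the median of gene means). Only 2 of the 5 lay above that median, the probe set used and the lower probe set. The lower probe set differed by -0.34, with levels of 2.94 to 6.32 in DeltaKlf6 and 5.09 to 5.42 in wildtype (log2). Bmf, a BH3-only protein tied to loss of cell attachment, differed by 0.16 (log2, SE 0.30), and by -0.07 without DeltaKlf6 1. Bnip3l, a mitophagy receptor also called NIX, differed by -0.09 (log2, SE 0.23), and by 0.06 without wildtype 2. On the other 2 Bnip3l probe sets the groups did not overlap, with log2 levels of 8.23 to 8.75 in DeltaKlf6 against 8.89 to 8.92 in wildtype, and of 5.39 to 6.15 in DeltaKlf6 against 6.27 to 6.54 in wildtype (log2 differences -0.34 and -0.56).

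The death receptor group, Fas with the adaptors Fadd and Tradd and the caspase-8 modulator Cflar, overlapped between the groups at each gene. Fas had log2 levels of 7.21, 7.35 and 6.34 in DeltaKlf6 1, 2 and 3, against 6.46, 7.59 and 7.13 in wildtype 1, 2 and 3 (log2 difference -0.09, SE 0.37, and 0.22 without DeltaKlf6 3). Fadd had log2 levels of 5.21, 6.26 and 5.67 in DeltaKlf6 1, 2 and 3, against 5.84, 6.17 and 6.33 in wildtype 1, 2 and 3 (log2 difference -0.40, SE 0.30). Fadd was low in DeltaKlf6 1 and 3, and its difference was -0.15 without DeltaKlf6 1 and -0.67 without DeltaKlf6 2. Tradd, the adaptor of the TNF receptor, had log2 levels of 3.44, 3.99 and 3.54 in DeltaKlf6 1, 2 and 3, against 3.31, 3.70 and 3.25 in wildtype 1, 2 and 3 (log2 difference 0.23, SE 0.24, and 0.07 without DeltaKlf6 2). Its other probe set ran the other way without overlap, with log2 levels of 2.69 to 2.83 in DeltaKlf6 against 2.85 to 3.38 in wildtype, and both lay below the median of gene means.

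Cflar, encoding cFLIP, which occupies caspase-8 at the receptor, had log2 levels of 7.73, 6.95 and 6.26 in DeltaKlf6 1, 2 and 3, against 6.57, 7.41 and 7.23 in wildtype 1, 2 and 3. Its highest and its lowest array both came from DeltaKlf6, and the log2 difference was -0.09 (SE 0.40). All 5 Cflar probe sets had a negative log2 difference, from -0.91 to -0.09. On the probe set at -0.91 the levels were 4.72, 4.12 and 3.15 in DeltaKlf6 1, 2 and 3, against 4.62, 5.02 and 5.10 in wildtype 1, 2 and 3 (log2). The sign of the main probe set turned to 0.27 without DeltaKlf6 3 and to 0.08 without wildtype 2.

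The inhibitors split. Nol3, also called ARC, a protein with a caspase recruitment domain that blocks both death routes, had log2 levels of 3.69, 3.78 and 4.59 in DeltaKlf6 1, 2 and 3, against 2.76, 3.03 and 3.09 in wildtype 1, 2 and 3. The groups did not overlap, and the log2 difference was 1.06 (SE 0.29, 95% confidence interval 0.39 to 1.72, limma adjusted p = 0.992), between 0.77 and 1.22 with each array left out. The other 2 Nol3 probe sets differed by -0.23 and -0.03 (log2), and the mean over the 3 probe sets had an unadjusted p above 0.05. Xiap, which binds and inhibits caspases directly, had log2 levels of 8.29, 8.93 and 7.85 in DeltaKlf6 1, 2 and 3, against 8.54, 8.65 and 8.55 in wildtype 1, 2 and 3. DeltaKlf6 lay on both sides of a narrow wildtype range (log2 difference -0.22, SE 0.29, and 0.03 without DeltaKlf6 3).

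All 7 probe sets of Xiap had a negative log2 difference, from -0.89 to -0.09. On 2 of them, both below the median of gene means, the groups did not overlap, with log2 levels of 2.54 to 3.52 in DeltaKlf6 against 3.84 to 4.20 in wildtype, and of 2.16 to 2.39 in DeltaKlf6 against 2.60 to 3.01 in wildtype. Probe sets of a gene share the same RNA and are no replicates. Birc2, a ubiquitin ligase of the TNF receptor complex, had log2 levels of 7.54, 7.12 and 7.35 in DeltaKlf6 1, 2 and 3, against 7.81, 7.53 and 7.43 in wildtype 1, 2 and 3. DeltaKlf6 2 and 3 lay below the wildtype range and DeltaKlf6 1 within it (log2 difference -0.25, SE 0.22, and -0.14 without DeltaKlf6 2 or wildtype 1).

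The apoptosome and the proteins that mitochondria release had 3 genes higher and 3 lower, with log2 differences from -0.24 to 0.19 and none with an unadjusted p under 0.05. Cycs, encoding cytochrome c, had log2 levels of 11.09, 10.82 and 11.51 in DeltaKlf6 1, 2 and 3, against 11.28, 11.39 and 11.47 in wildtype 1, 2 and 3 (log2 difference -0.24, SE 0.24, and -0.08 without DeltaKlf6 2). The other 2 Cycs probe sets differed by 0.30 and 0.44 (log2), so the gene has no settled sign. Aifm1, encoding the mitochondrial flavoprotein AIF, had log2 levels of 8.60, 8.75 and 7.78 in DeltaKlf6 1, 2 and 3, against 8.18, 8.33 and 8.14 in wildtype 1, 2 and 3 (log2 difference 0.16, SE 0.29). Endog, a mitochondrial nuclease, had log2 levels of 7.80, 8.29 and 7.57 in DeltaKlf6 1, 2 and 3, against 7.89, 7.65 and 7.73 in wildtype 1, 2 and 3 (log2 difference 0.13, SE 0.25). In Aifm1 and Endog DeltaKlf6 2 was the highest array and DeltaKlf6 3 the lowest, and without DeltaKlf6 2 the log2 differences were -0.02 and -0.07.

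Apaf1, the scaffold of the apoptosome, had the widest range of these genes in DeltaKlf6, with log2 levels of 5.96, 4.73 and 3.78 in DeltaKlf6 1, 2 and 3, against 4.78, 4.43 and 4.69 in wildtype 1, 2 and 3. As with Bcl2l1 and Mcl1 on the probe sets used, DeltaKlf6 1 was the highest array, here by 1.32 over the wildtype mean (log2). DeltaKlf6 3 was the lowest. The log2 difference was 0.19 (SE 0.49), and it was -0.38 without DeltaKlf6 1 and 0.71 without DeltaKlf6 3. Diablo and Htra2, both of which displace inhibitors from caspases, differed by -0.11 (SE 0.22) and -0.16 (SE 0.42) on the log2 scale.

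The DNA fragmentation pair consists of Dffb, the caspase-activated nuclease, and Dffa, its inhibitor and chaperone. Dffa had log2 levels of 5.52, 6.54 and 5.60 in DeltaKlf6 1, 2 and 3, against 6.95, 6.95 and 6.30 in wildtype 1, 2 and 3. DeltaKlf6 1 and 3 lay below every wildtype array and DeltaKlf6 2 between them (log2 difference -0.85, SE 0.34, 95% confidence interval -1.62 to -0.07). Dffb had log2 levels of 2.55, 2.48 and 2.99 in DeltaKlf6 1, 2 and 3, against 2.18, 2.30 and 2.28 in wildtype 1, 2 and 3, apart but among dim signals (log2 difference 0.42, SE 0.22, and 0.27 without DeltaKlf6 3). Each of these genes has a single probe set here, and neither passed the test (limma adjusted p = 0.992 for both).

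Set by array, the libraries labelled DeltaKlf6 lay apart from each other in the cell death genes. DeltaKlf6 3 gave the lowest of the 6 values for 19 of the 37 genes (51.4%), beside 25.6% of all genes. Among the 29 cell death genes above the median level the count was 18 (62.1%), beside 37.8% of all genes at that level. The median deviation of the cell death genes from the wildtype mean was 0.02, 0.14 and -0.43 in DeltaKlf6 1, 2 and 3, against -0.07, 0.07 and -0.01 in wildtype 1, 2 and 3 (log2). All genes above the median level had median deviations of 0.00, 0.07 and -0.24 in DeltaKlf6 1, 2 and 3, while the 3 wildtype arrays had -0.04, 0.03 and 0.02 (log2). DeltaKlf6 3 also had the lower upper quartile and the larger Gapdh gap, though not a larger actin gap than wildtype, and their part in this pattern was not tested.

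**Figure D3:**
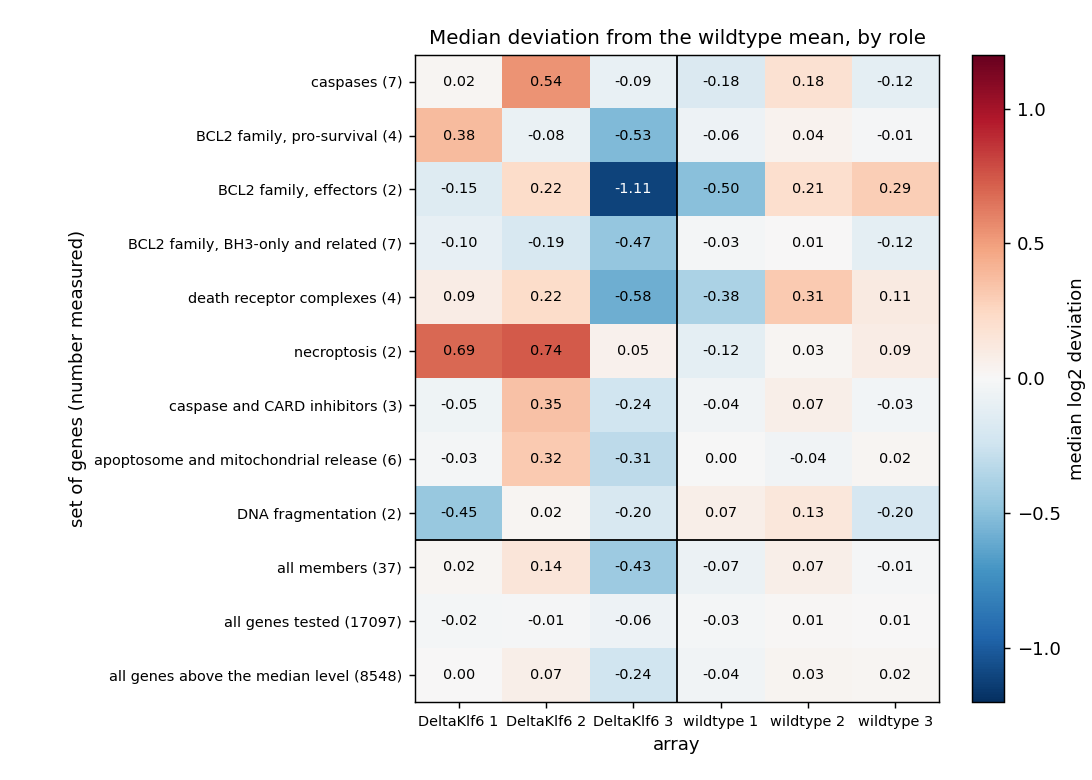
Each cell gives the median log2 deviation of a set of genes (rows, with the number measured) from its wildtype mean in an array (columns), and the row of all members holds the 37 cell death genes. The column of DeltaKlf6 3 is negative for every role except necroptosis, and for all cell death genes it reads -0.43, beside -0.24 for all genes above the median level.

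By role, as median log2 deviations, DeltaKlf6 3 was the lowest array for the effectors (-1.11), the death receptor genes (-0.58) and the pro-survival genes (-0.53). It was also the lowest for the BH3-only and related genes (-0.47), the apoptosome and release genes (-0.31) and the inhibitors (-0.24). For the caspases, necroptosis and DNA fragmentation it was not the lowest. DeltaKlf6 1 was the highest array for the pro-survival genes (0.38). For the caspases DeltaKlf6 2 was the highest array (0.54), beside 0.02 and -0.09 in DeltaKlf6 1 and 3. The spread within DeltaKlf6 was the wider for 29 of the 37 genes (78.4%), beside 68.1% of all genes. The median SD of the cell death genes was 0.52 in DeltaKlf6 and 0.25 in wildtype, beside 0.35 and 0.24 over all genes (log2, n = 3 each). These comparisons of spread were not matched for signal level, and 29 of the 37 genes lay above the median level. Over all genes, DeltaKlf6 arrays correlated with each other at 0.946 to 0.964 and wildtype arrays at 0.982 to 0.983. Arrays across the groups correlated at 0.964 to 0.981.

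The 37 genes had 82 probe sets between them, 31 with a higher and 51 with a lower group mean in DeltaKlf6. Over all 28898 single-gene probe sets 14113 were higher and 14785 lower. Xiap and Cflar supplied 7 and 5 of the 51. Groups did not overlap on 13 of the 82 (15.9%), beside 9.48% of all single-gene probe sets, and these 13 belonged to 11 genes. Of the 23 genes with several probe sets, all probe sets had 1 sign in 10 (43.5%), beside 42.5% of the 7180 such genes in the whole table. These 10 were Casp12 (higher) and Bcl2, Bad, Bik, Bnip3l, Bcl2l13, Fadd, Cflar, Xiap and Diablo (lower).

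**Figure D4:**
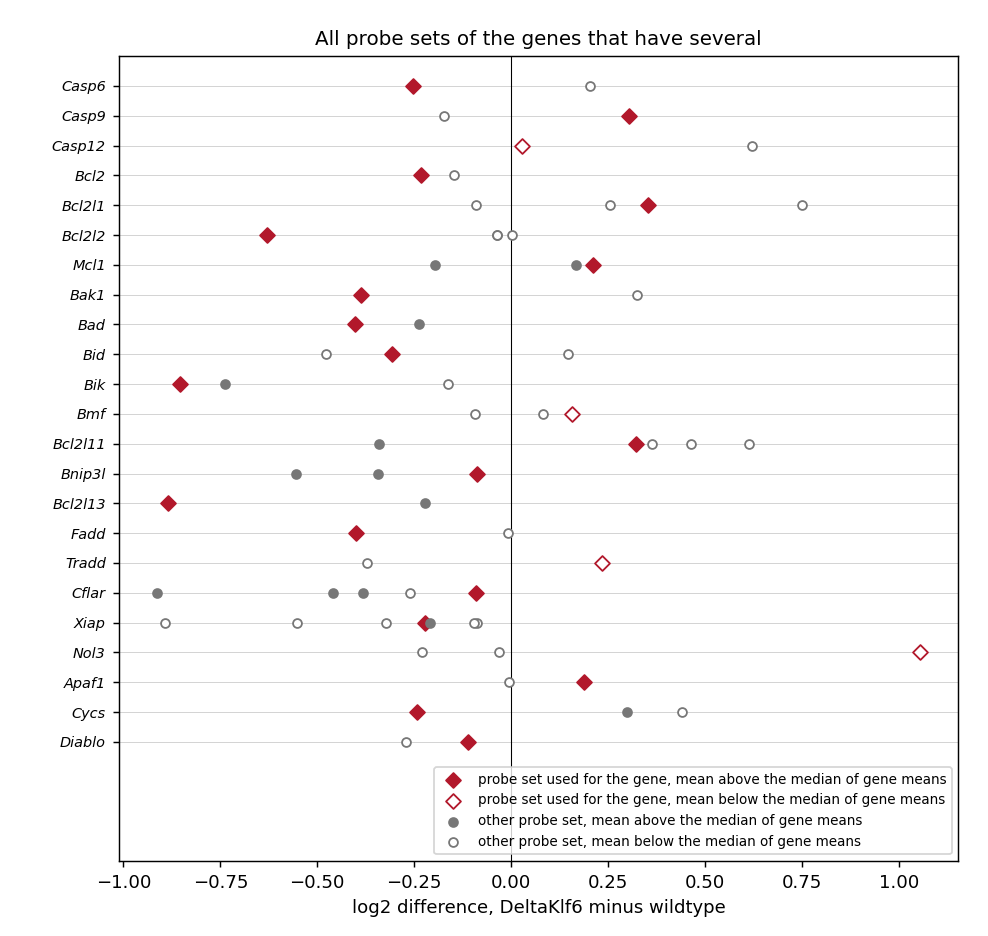
Each point is a probe set, placed at its log2 difference, DeltaKlf6 minus wildtype, for the 23 genes with several. Diamonds mark the probe set used for the gene, and open symbols a mean below the median of gene means. All probe sets of Xiap, Cflar, Bnip3l and Bik lie left of 0, while for Nol3 the probe set used lies at 1.06 and the other 2 at -0.23 and -0.03.

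Other genes of the same pathways, from lists outside the 39, did not pass either. Of 17 measured genes of death ligands, receptors and survival signalling 8 were higher and 9 lower (median log2 difference -0.04), with 0 past the adjusted threshold and 0 at an unadjusted p under 0.05. Here Traf1, an adaptor of TNF receptors, had the smallest p, at -0.58 (log2 difference, SE 0.33), followed by Tnfrsf1a, the main TNF receptor, at 0.38 (SE 0.27), Sharpin, part of the linear ubiquitin ligase, at -0.22 (SE 0.21), and Tnfaip3, an NF-kB inhibitor, at -0.28 (SE 0.28). Of 18 measured genes of the mitochondrial pathway 7 were higher and 11 lower (median log2 difference -0.06), and 0 passed. At an unadjusted p under 0.05 there were 2, both lower, beside 2.48% of all genes on that side. The groups did not overlap for the same 2, beside 5.91% of all genes.

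The mitochondrial list was led by Bnip3, the mitophagy receptor related to Bnip3l. Bnip3 had log2 levels of 9.88, 9.32 and 9.96 in DeltaKlf6 1, 2 and 3, against 10.23, 10.32 and 10.32 in wildtype 1, 2 and 3, with no overlap (log2 difference -0.57, SE 0.24). Parp1, a DNA damage sensor that caspases cut, had log2 levels of 6.20, 6.60 and 6.47 in DeltaKlf6 1, 2 and 3, against 7.04, 6.69 and 7.19 in wildtype 1, 2 and 3, also without overlap (log2 difference -0.55, SE 0.23). Naip5 differed by -0.61 (log2, SE 0.29) and the BH3-only gene Pmaip1 by 0.63 (log2, SE 0.32). For both the groups overlapped and the mean lay below the median of gene means.

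Of 10 measured genes of necroptosis and pyroptosis outside the 39, 6 were higher and 4 lower (median log2 difference 0.15), with 0 past the threshold. At an unadjusted p under 0.05 there were 2, both higher, beside 1.21% of all genes on that side. Il18, the cytokine that caspase-1 matures, had log2 levels of 7.05, 7.32 and 6.72 in DeltaKlf6 1, 2 and 3, against 6.34, 6.50 and 6.22 in wildtype 1, 2 and 3. Zbp1, a nucleic acid sensor that engages RIPK3, had log2 levels of 5.93, 6.43 and 5.61 in DeltaKlf6 1, 2 and 3, against 5.14, 5.47 and 5.48 in wildtype 1, 2 and 3. Both were higher without overlap in all 3 libraries labelled DeltaKlf6, beside 3.41% of all genes. Their log2 differences of 0.68 (SE 0.23) and 0.63 (SE 0.26) did not pass (limma adjusted p = 0.992 for both). Il1b differed by -0.43 (log2, SE 0.25) and Tlr3, a receptor of double-stranded RNA, by -0.39 (log2, SE 0.24).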

How the data were processed

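Liver RNA of 3 DeltaKlf6 and 3 wildtype mice was hybridised to 1-colour Affymetrix arrays. Per the submitters' processing notes, the authors used RMA and Affymetrix Expression Console (version 1.2.1), and the deposited values are taken as log2 expression. The log base was inferred from the highest value, 13.9, since a 16-bit scanner cannot exceed 16 on that scale. No counts lie behind array values, so the number of arrays limits the precision.

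Of 45141 probe sets, 28898 had 1 gene symbol in the platform annotation, 551 had several and 15692 had none here. The Entrez gene number changed 0 symbols. Groups were taken from the sample titles. Differences, DeltaKlf6 minus wildtype, were tested by limma (version 3.58.1, lmFit and eBayes, with statmod 1.5.0) under R 4.3.3, two-sided, with Benjamini-Hochberg adjustment over all 17097 genes at 0.05. The calculation was tested on simulated data. Alternatives were another choice of probe sets, a filter on dim genes, renewed normalization, other variance settings, a replicate block and each array left out.

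The genes and lists were chosen with earlier results of these data known. Every member is named, in each role the 3 of smallest unadjusted p (all in a role of up to 4) with every array, and in each other list the 4 of smallest unadjusted p. Arrays of Casp8, Bcl2l11, Apaf1, Traf1 and single further probe sets were added after their values were seen.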

Additional observations from a re-analysis of the deposited data

How the results depend on the processing

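With each alternative and each array left out, 0 cell death genes and 0 of all genes passed the adjusted threshold. Cell death genes at an unadjusted p under 0.05 numbered 5, and 2 without dim genes (3.87% of all genes there). They numbered 9 when a gene counted by any of its probe sets (24.3%, beside 5.89% of all genes counted the same way). Such a count rises with the number of probe sets, and 23 of the 37 genes had several, beside 7180 of all 17097. On the probe set used, with each array left out, the number ran from 2 to 6. Without dim genes the necroptosis median was 0.055 (Mlkl alone) and that of DNA fragmentation -0.85 (Dffa alone), since Ripk3 and Dffb were dropped. With each array left out the BH3-only median ran from -0.42 to -0.087 and that of all 37 genes from -0.17 to 0.20, and after renewed quantile normalization the median of the 37 was 0.0068.

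Signs turned for Tradd (-0.068) and Cycs (0.17) with the mean of probe sets, for Bmf (-0.092) without probe sets shared between transcripts, and for Casp8 (0.0018), Fas (0.015) and Cflar (0.0068) after renewed quantile normalization. Leaving out arrays in turn gave log2 differences from -0.23 to 0.32 for Casp2, -0.65 to 0.20 for Casp6, -0.32 to 0.20 for Casp8, -0.23 to 0.32 for Casp12, -0.17 to 0.62 for Bcl2l1, -0.22 to 0.54 for Mcl1, -0.78 to 0.25 for Bok, -0.071 to 0.47 for Bmf and -0.012 to 0.75 for Bcl2l11. It gave -0.20 to 0.063 for Bnip3l, -0.39 to 0.22 for Fas, -0.46 to 0.27 for Cflar, -0.14 to 0.39 for Mlkl, -0.51 to 0.030 for Xiap, -0.38 to 0.71 for Apaf1, -0.26 to 0.0017 for Diablo, -0.53 to 0.25 for Htra2, -0.024 to 0.46 for Aifm1 and -0.072 to 0.29 for Endog. The cause was not tested.

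Deviations of same-numbered arrays correlated at -0.0049, 0.262 and 0.0837, and those of unlike-numbered arrays from -0.17 to 0.086. The largest, 0.262, was that of the arrays numbered 2. Whether replicate numbers pair the arrays is not known from these values. With the replicate block 5 cell death genes had an unadjusted p under 0.05, beside 4.11% of all genes, and 0 passed. Htra2 could not be read without shared probe sets.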
